A study of Mus musculus with 8 samples.

Results

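The 8 genes described here encode the actins and alpha-actinins of muscle sarcomeres (Acta1, Actc1, Actn2 and Actn3) and of the general cytoskeleton (Actb, Actg1, Actn1 and Actn4). They were chosen by gene symbol. Every probe set of the array that the platform annotation assigns to 1 of them alone was taken, control probe sets excepted, which gave 11 of 45037 probe sets, 4 for the sarcomeric and 7 for the cytoplasmic genes. The arrays were hybridised with total RNA from the subcutaneous fat of 8 male diabetic mice, 1 array per mouse. Their age is given as 8 weeks, which cannot be the age at sampling, since the gavage lasted 10 weeks. All mice were gavaged on 5 days per week for 10 weeks. Water alone went to 4 of them, the placebo mice 6, 8, 10 and 14. The others, mice 5, 9, 11 and 13, were given niacin-bound chromium (NBC), chromium complexed with the vitamin niacin, at 10 mg per kg in water. The diabetic strain is not given in the sources used here. Values are MAS5 signals, a linear intensity per probe set. The median signal lay between 286 and 330 on the 8 arrays, and their small number limits how precise any value can be. Signals are listed in the order of mice 6, 8, 10 and 14 for placebo and 5, 9, 11 and 13 for NBC, and n is 4 mice per group throughout. All 8 adipocyte marker genes that the annotation named were bright enough to be tested, and 7 of them lay below and 1 above a log2 difference of 0. Of all named genes tested, 48.5% lay above 0. The summed signal of the adipocyte markers was 538098 to 661824 in placebo and 530272 to 631703 in NBC mice.

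Actin monomers polymerise into filaments. In striated muscle the alpha-actins Acta1 (skeletal) and Actc1 (cardiac, also used by developing skeletal muscle) form the thin filaments, while beta-actin (Actb) and gamma-actin (Actg1) build the cortex and stress fibres of nearly every cell. Alpha-actinins are antiparallel dimers that cross-link these filaments. Actn2 and Actn3 anchor thin filaments at the Z-disc, Actn3 in fast fibres and Actn2 in all striated fibres including the heart, whereas Actn1 and Actn4 bundle actin at adhesions and stress fibres.

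The sarcomeric genes Actn3 and Acta1 had higher mean signals in NBC than in placebo mice, 23.6-fold and 4.37-fold, and the dim Actn2 probe set had a higher mean too. Leaving out placebo mouse 10 moved the ratio of means from 2.72-fold to 6.05-fold for Actn2 and from 4.37-fold to 6.70-fold for Acta1. Actc1 was dim, with a mean slightly lower in NBC mice. The brightest probe set of each cytoplasmic gene had nearly the same mean in both groups, 0.996-fold (Actn4) to 1.11-fold (Actn1). A second Actb probe set departed from the bright one and stood high in the same 3 NBC mice as Actn3. The high sarcomeric signals came from NBC mice 5, 11 and 13. NBC mouse 9 lay at or near the placebo values.

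The groups were compared with limma over the 22519 probe sets that remained after dim ones were set aside, with p-values adjusted by Benjamini-Hochberg. No member passed the adjusted threshold of 0.05. Among all 22519, 0 passed (0%) and 1400 had an unadjusted p under 0.05 (6.22%; 2396 of 45037, 5.32%, with no filter). Of the 11 member probe sets, 9 were kept. Of these, 3 (Acta1, Actn3 and the second Actb probe set) had an unadjusted p under 0.05 and were higher in NBC, against 3.28% of all probe sets kept, and 0 were lower, against 2.94%. The signals of the groups overlapped in all 11 member probe sets, so 0 separated them, against 3.85% of all probe sets kept (1.79% higher and 2.06% lower in NBC). Without NBC mouse 9, 1 member (Actn3) passed the adjusted threshold, as did 18 of all 22519 probe sets (0.0799%), 17 of them higher in NBC (0.0755%). This was the NBC mouse low in Actn3, so leaving it out raises the difference and narrows the spread, and the pass is not independent evidence.

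**Figure D1:**
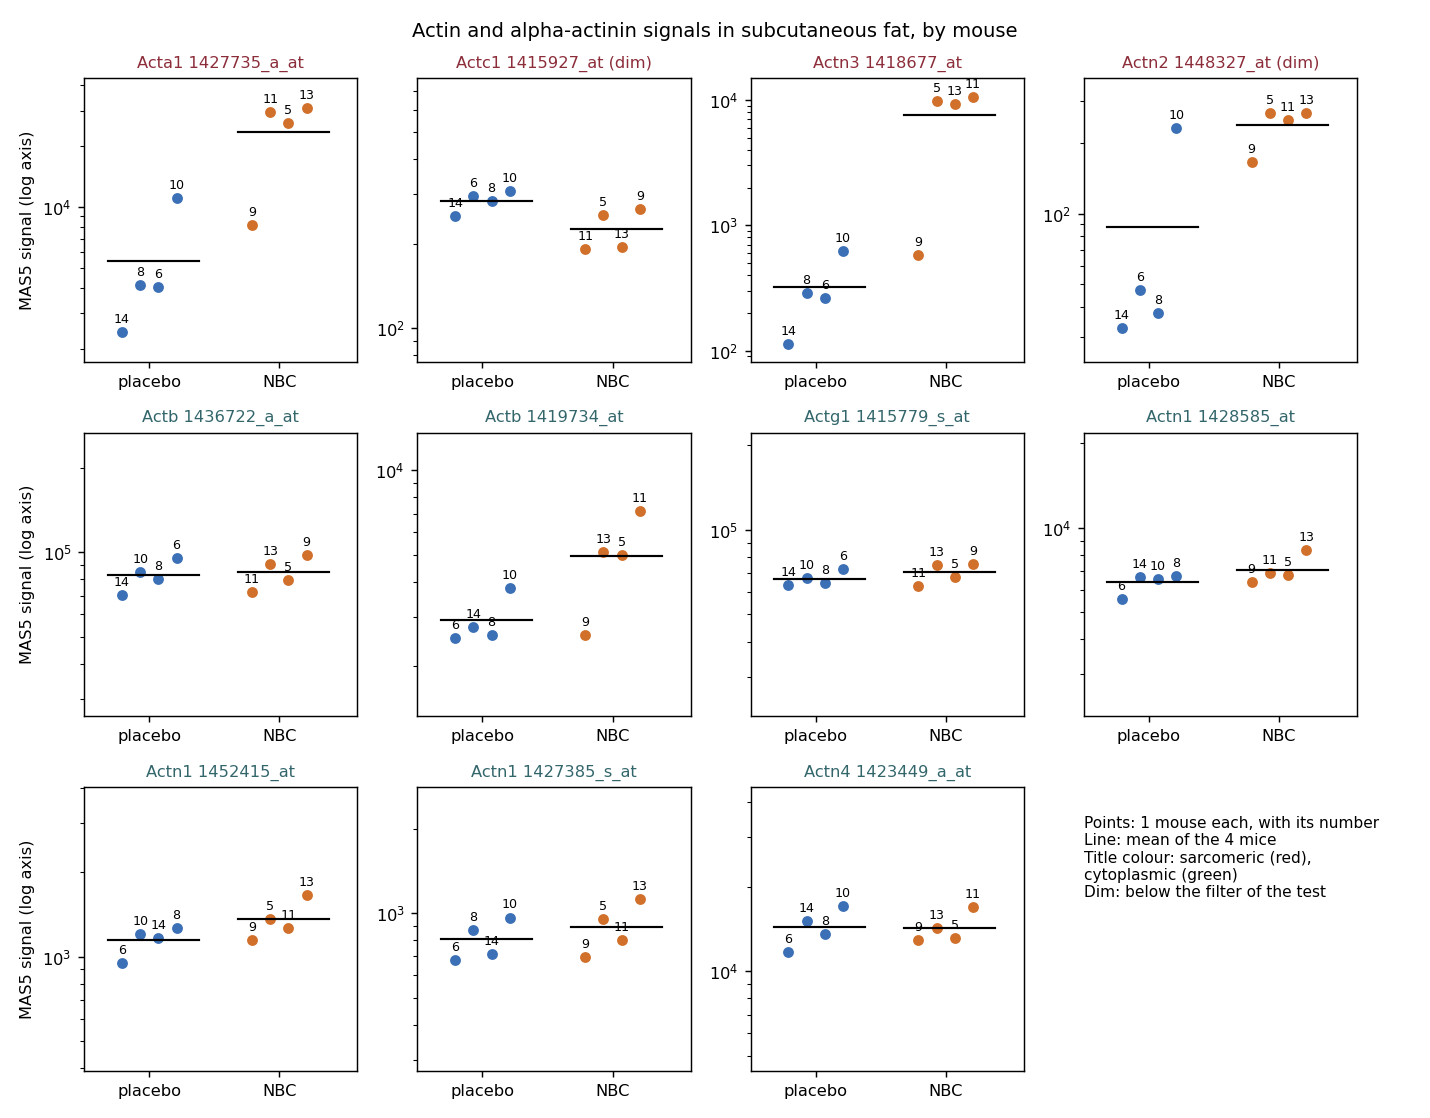
MAS5 signal (log axis) of the 11 member probe sets in each of the 8 mice, with points labelled by mouse number and lines at the means of the 4 mice per group. Acta1 and Actn3 stand high in NBC mice 5, 11 and 13, with NBC mouse 9 beside placebo mouse 10, while Actb 1436722_a_at, Actg1 and Actn4 overlap widely.

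The skeletal alpha-actin gene Acta1 (probe set 1427735_a_at) read 4046, 4118, 11040 and 2408 on placebo, against 26011, 8181, 29408 and 30882 on NBC. NBC mice 5, 11 and 13 thus stood above all placebo mice, while NBC mouse 9 lay below placebo mouse 10 and above the other placebo mice. The group means were 5403 ± 3840 (SD) on placebo against 23620 ± 10493 (SD) on NBC. The log2 difference, NBC minus placebo, of log2(signal + 26) was 2.19 (SE 0.53, 95% interval 0.98 to 3.39; limma adjusted p = 0.653). It was 2.64 (adjusted p = 0.162) without NBC mouse 9, and the adjusted p ranged from 0.162 to 0.973 over 17 alternatives.

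The cardiac alpha-actin gene Actc1 (1415927_at) read 295, 283, 306 and 250 on placebo, against 253, 265, 191 and 194 on NBC. Its lowest signals were those of NBC mice 11 and 13, which had the highest Acta1 signals, and the groups overlapped at placebo mouse 14, which lay below NBC mice 5 and 9. The mean lay just below the brightness limit of the test, a signal of about 275, so the gene was not tested in the fit described. The group means were 284 ± 24.3 (SD) on placebo against 226 ± 38.6 (SD) on NBC, and the log2 difference was -0.31. With no filter its 95% interval was -0.69 to 0.07 (limma adjusted p = 0.919). Among 12 marker genes of slow fibres and cardiac muscle, only the calcium pump gene Atp2a2 and the light chain gene Myl3 were bright enough to be tested, and their log2 differences were -0.0042 (SE 0.12) and -0.057 (SE 0.36). Of 11 markers of muscle precursors and regenerating fibres, only Myl4 was tested (-0.22, SE 0.15). Atp2a2 (11605 to 15093) and Myl4 (4590 to 6878) were bright in all 8 mice. The other 10 genes of each list were too dim to be tested, so these few values cannot show whether such muscle differed.

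Actn3 (1418677_at), the alpha-actinin of fast fibres, read 264, 286, 622 and 114 on placebo, against 9810, 574, 10601 and 9309 on NBC. NBC mice 5, 11 and 13 lay close together and far above every placebo mouse, and NBC mouse 9 again lay just below placebo mouse 10. The group means were 322 ± 215 (SD) on placebo against 7574 ± 4697 (SD) on NBC. The log2 difference was 4.03 (SE 0.91, 95% interval 1.97 to 6.09; limma adjusted p = 0.653), which placed the probe set 43rd of 22519 by p. Without NBC mouse 9 it was 5.04 (SE 0.44; adjusted p = 0.00922). With each other mouse left out it lay between 3.66 and 4.40, past the threshold in none of these fits. Over 17 alternatives the adjusted p ranged from 0.00922 to 0.973.

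Actn2 (1448327_at), the Z-disc alpha-actinin shared by all striated fibres, was dim throughout, with signals of 47, 38, 232 and 33 on placebo, against 266, 166, 251 and 268 on NBC. Placebo mouse 10 stood with the NBC mice, above NBC mouse 9, and the other placebo mice lay below all NBC mice. The group means were 87.4 ± 96.5 (SD) on placebo against 238 ± 48.8 (SD) on NBC, and the log2 difference was 1.50. All its signals lay below the brightness limit of the test. With no filter its 95% interval was 0.42 to 2.58 (limma adjusted p = 0.832), and a pseudocount of 100 in place of 26 brought the difference to 0.95.

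The 3 sarcomeric genes that were higher in NBC shared the order of the mice at its upper end. In Acta1, Actn2 and Actn3 NBC mice 5, 11 and 13 came first, followed by placebo mouse 10 and then NBC mouse 9, and placebo mouse 14 was lowest. The summed signal of 14 skeletal muscle fibre markers outside the members, such as the creatine kinase Ckm, moved with them. It was 4433, 7427, 12612 and 4245 on placebo, against 98862, 9462, 106933 and 99759 on NBC. No marker of this list was at 0 in any mouse. Of the 14, 12 were tested, all 12 lay above 0 with a median log2 difference of 2.91, and 10 were higher at an unadjusted p under 0.05. Of all 11662 named genes tested, 48.5% lay above 0 and 2.73% were higher at that p. The brightness limit was set on the mean of all 8 mice. Pygm, with 32 to 244 on placebo, was kept only through its high NBC signals. For such a gene, being tested itself favours a difference above 0. In bulk fat, more fibres in the sample and more RNA per fibre cannot be told apart. The part of this muscle signal in the differences above was not tested.

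**Figure D2:**
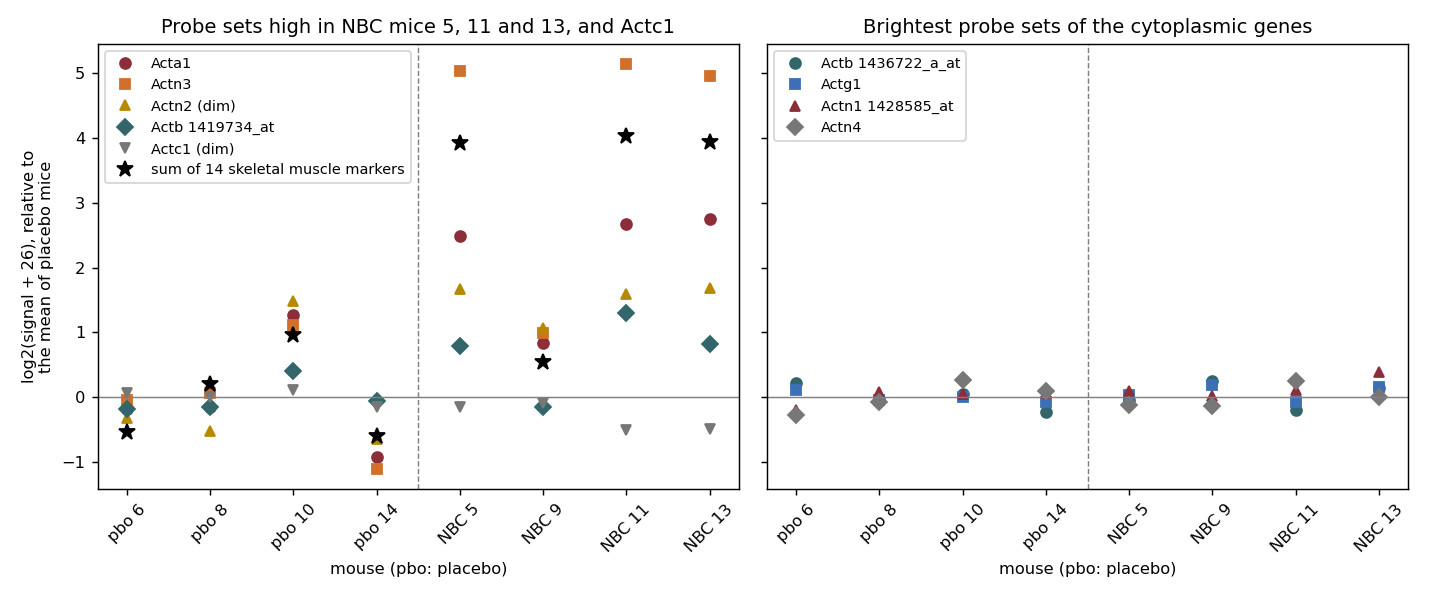
Log2(signal + 26) of the members and of the summed skeletal muscle markers in each mouse, relative to the mean of the placebo mice. Left, the probe sets that stood high in NBC mice 5, 11 and 13 follow the black stars of the muscle markers while Actc1 does not. Right, the brightest probe sets of Actb, Actg1, Actn1 and Actn4 stay near 0 in all mice.

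The actin genes differ in where they are used, yet the 3 of them that could be searched share a short element near their start. The 250 bases before the RefSeq transcription start (GRCm38.p6) were searched on both strands for the CArG box, the site bound by serum response factor, a regulator of actin genes. They are shown for the actin genes Acta1, Actc1 and Actg1, whose signals differed as described but which each hold 1 match, in capitals. A window was found for 6 of the 8 members, but not for Actb and Actn3.
Acta1, minus strand, chr8:123894776-123895025: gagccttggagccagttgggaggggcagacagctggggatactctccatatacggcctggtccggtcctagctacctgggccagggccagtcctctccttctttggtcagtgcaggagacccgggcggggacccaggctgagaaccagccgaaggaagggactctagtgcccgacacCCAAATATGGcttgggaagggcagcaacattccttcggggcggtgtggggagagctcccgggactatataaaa
Actc1, minus strand, chr2:114052876-114053125: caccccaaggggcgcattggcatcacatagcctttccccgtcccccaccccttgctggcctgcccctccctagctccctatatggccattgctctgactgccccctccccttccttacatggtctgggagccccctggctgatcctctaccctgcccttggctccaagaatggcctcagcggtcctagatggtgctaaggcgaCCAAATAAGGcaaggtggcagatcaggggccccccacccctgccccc
Actg1, minus strand, chr11:120348496-120348745: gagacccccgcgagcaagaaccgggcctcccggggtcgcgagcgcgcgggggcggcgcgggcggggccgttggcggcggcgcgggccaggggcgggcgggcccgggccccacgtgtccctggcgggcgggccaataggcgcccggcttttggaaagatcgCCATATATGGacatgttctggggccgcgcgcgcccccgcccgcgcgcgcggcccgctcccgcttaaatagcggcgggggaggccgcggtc
The match begins 73 bases before the start in Acta1, 47 in Actc1 and 90 in Actg1. Of 32851 windows of this length in the table, 1.47% hold a match. The windows of Actn1, Actn2 and Actn4 hold none. The E-box CANNTG, which muscle regulatory factors can bind, is frequent (66.2% of windows) and occurs 2 times in Acta1, 3 times in Actn2 and once each in Actg1, Actn1 and Actn4. No MEF2 site was matched in the 6 windows (2.92% of all windows). Of the searched genes with a CArG box, Acta1 stood high in NBC mice, while Actc1 and Actg1 did not. Matches are a description, not sites of binding. Actb and Actn3 had no window to search, so whether they hold a CArG box is not known here. Srf itself, which encodes serum response factor, differed by 0.053 (SE 0.19; limma adjusted p = 0.971) between the groups.

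Beta-actin was read by a very bright and by a dimmer probe set that disagreed. The bright one, 1436722_a_at, read 95493, 80529, 85053 and 70524 on placebo, against 79588, 97991, 72054 and 90960 on NBC. Both the highest and the second lowest signal belonged to NBC mice, and the groups overlapped over nearly the whole range. The log2 difference was 0.037 (95% interval -0.29 to 0.37; limma adjusted p = 0.973), and 0.36 for the mean of both Actb probe sets (limma unadjusted p = 0.0291, adjusted p = 0.774). The dimmer one, 1419734_at, read 2521, 2588, 3796 and 2755 on placebo, against 4988, 2581, 7126 and 5100 on NBC. NBC mice 5, 11 and 13 were above every placebo mouse, placebo mouse 10 was the highest of its group, and NBC mouse 9 lay below 3 of the placebo mice. Its log2 difference was 0.69 (SE 0.29, 95% interval 0.038 to 1.34; unadjusted p = 0.0402 and adjusted p = 0.778 with limma), and 0.97 (adjusted p = 0.215) without NBC mouse 9.

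The order of the mice in 1419734_at was thus that of the sarcomeric genes at its upper end, and the signal of the bright Actb probe set was lowest in placebo mouse 14 and NBC mouse 11. The control probe sets for the 3', middle and 5' parts of beta-actin transcripts give the RNA quality beside this. The 3' signal was 124862, 104453, 114374 and 94867 on placebo, against 113540, 126007, 94746 and 117732 on NBC. Like the bright probe set, it was highest in NBC mouse 9 and low in placebo mouse 14 and NBC mouse 11. The 3' to 5' ratio was 1.51 to 1.74 on placebo, against 2.10, 1.51, 1.82 and 1.56 on NBC. The 3' to middle ratio lay between 1.37 and 1.61 on placebo and between 1.43 and 1.55 on NBC. The Gapdh 3' to 5' ratio was 1.04, 0.92, 0.99 and 0.92 on placebo, against 1.47, 0.84, 1.28 and 1.11 on NBC. As with Acta1, Actn3 and Actb 1419734_at, it exceeded every placebo value in NBC mice 5, 11 and 13. NBC mouse 9 had the lowest ratio of the 8 mice. The part of RNA quality in the differences was not tested.

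Gamma-actin (Actg1, 1415779_s_at) read 72594, 64768, 67254 and 63833 on placebo, against 68146, 75843, 63247 and 74785 on NBC. The lowest and the highest signal were both from NBC mice. Relative to its mean it had the smallest spread of the 11 probe sets on placebo, 67112 ± 3930 (SD), against 70505 ± 5918 (SD) on NBC. The log2 difference was 0.069 (95% interval -0.19 to 0.32; limma adjusted p = 0.922). The suffix s marks, in the maker's naming, probes shared between transcripts that can come from different genes, so the signal may hold other actin transcripts. Its values moved from mouse to mouse much as those of the bright Actb probe set did, both being highest in NBC mouse 9.

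The alpha-actinin of stress fibres and adhesions, Actn1, was read by 3 probe sets. The brightest, 1428585_at, read 5558, 6743, 6558 and 6656 on placebo, against 6758, 6402, 6868 and 8323 on NBC. NBC mouse 13 stood above all others and placebo mouse 6 below, and the remaining mice lay within a narrow band. The means of 1428585_at, 1452415_at and 1427385_s_at were 1.11-fold, 1.19-fold and 1.11-fold higher in NBC, with log2 differences of 0.15 (95% interval -0.14 to 0.44), 0.24 (-0.10 to 0.58) and 0.13 (-0.27 to 0.54), and limma adjusted p of 0.855, 0.814 and 0.904. In all 3 the top signal was that of NBC mouse 13, and the bottom one that of placebo mouse 6. NBC mouse 13 also had the highest summed signal of 11 fibroblast markers (423484, against 316982 to 347681 in placebo mice) and of 9 macrophage markers (239225, against 111278 to 168402). NBC mouse 9 came second in both sums (392654 and 178177, above every placebo mouse), yet its Actn1 signal was the second lowest of the 8 mice in all 3 probe sets. Of these lists 10 of 11 and 9 of 9 genes lay above 0, against 48.5% of all named genes tested, with median log2 differences of 0.23 and 0.21. At a limma unadjusted p under 0.05, 3 and 1 of them were higher, against 2.73% of all named genes tested. In both lists 0 passed the adjusted threshold. The part of these cells in the Actn1 values was not tested.

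Actn4 (1423449_a_at), the other non-muscle alpha-actinin, read 11699, 13520, 17039 and 15152 on placebo, against 13089, 12883, 16966 and 14247 on NBC. The NBC mice all lay within the range of the placebo mice. The group means were 14352 ± 2280 (SD) on placebo against 14296 ± 1878 (SD) on NBC, and the log2 difference was -0.00068 (95% interval -0.35 to 0.35; limma adjusted p = 1).

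**Figure D3:**
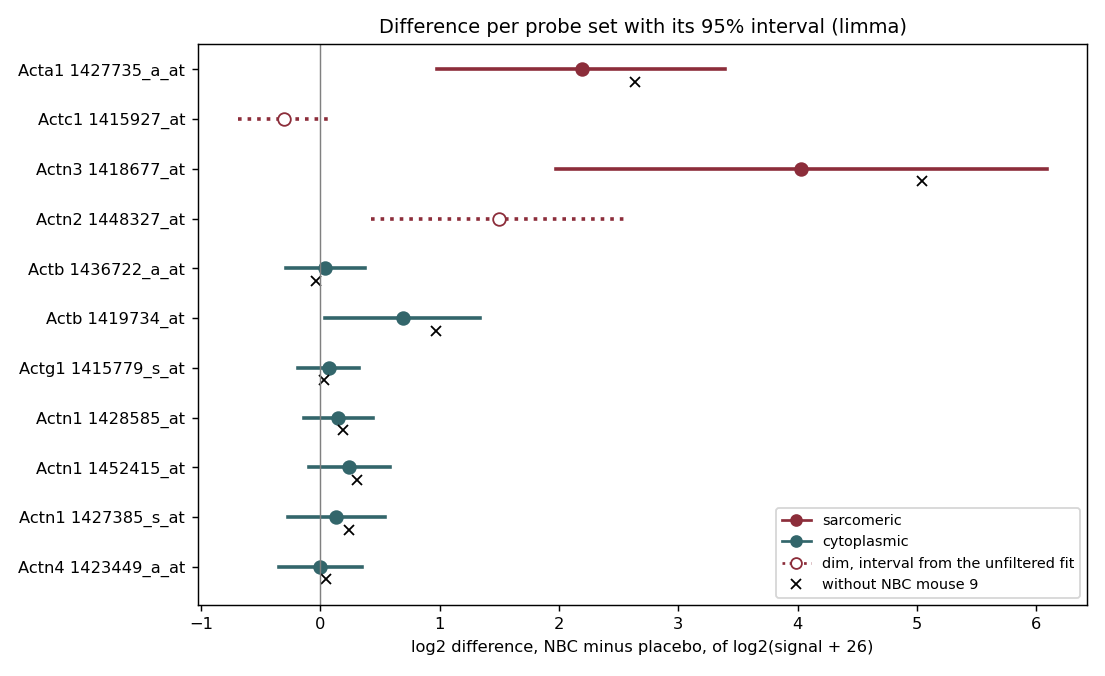
Log2 difference (NBC minus placebo) of the 11 member probe sets with its 95% interval from the limma fit, and from the unfiltered fit for the dim probe sets of Actc1 and Actn2 (dotted). Crosses give the value without NBC mouse 9, which moves Actn3 from 4.03 to 5.04 and leaves the brightest cytoplasmic probe sets near 0.

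Whether sarcomeric and cytoplasmic isoforms differed in their response was tested on the log2 ratio within each mouse, in which a scaling of the whole array nearly cancels. The test was a two-sided exact permutation test over 70 assignments, whose smallest p is 0.0286, with adjustment over 8 pairs. The ratio of Actn3 to Actn4 was -5.34, -5.44, -4.72 and -6.77 on placebo, against -0.42, -4.43, -0.68 and -0.61 on NBC. It was higher in all 4 NBC mice, by 4.03 on average (exact p = 0.0286, adjusted p = 0.114), with NBC mouse 9 only just above placebo mouse 10. The ratio of Acta1 to Actb was higher by 2.15 (exact p = 0.0571) and that of Actn2 to Actn1 by 1.35 (exact p = 0.0857), each with overlap at placebo mouse 10. The ratio of Actc1 to Actg1 went the other way. It was -7.82, -7.71, -7.66 and -7.85 on placebo, against -7.93, -8.03, -8.19 and -8.41 on NBC, a difference of -0.38 with no overlap (exact p = 0.0286). After quantile normalization the groups overlapped in this ratio (exact p = 0.0571). For each of these 3 pairs the adjusted p was 0.114 as well, so no pair passed the threshold after adjustment. A single pair at the smallest exact p could not have passed, since adjustment over 8 pairs needs several pairs at that p.

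Within a class, Acta1 exceeded Actc1 in its difference by 2.49 (exact p = 0.0571) and Actn3 exceeded Actn2 by 2.53 (exact p = 0.0857; adjusted p = 0.114 for both). The ratio of the bright Actb probe set to Actg1 differed by -0.032 (95% interval -0.20 to 0.13; exact p = 0.629) and that of Actn4 to Actn1 by -0.15 (95% interval -0.48 to 0.19; exact p = 0.343). These intervals come from the spread between mice and hold for these probe sets alone. With the mean of both Actb probe sets the ratio of Actb to Actg1 differed by 0.29, and with 1419734_at, an alternative chosen after the values were seen, by 0.62 (exact p = 0.171), both outside the interval.

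**Figure D4:**
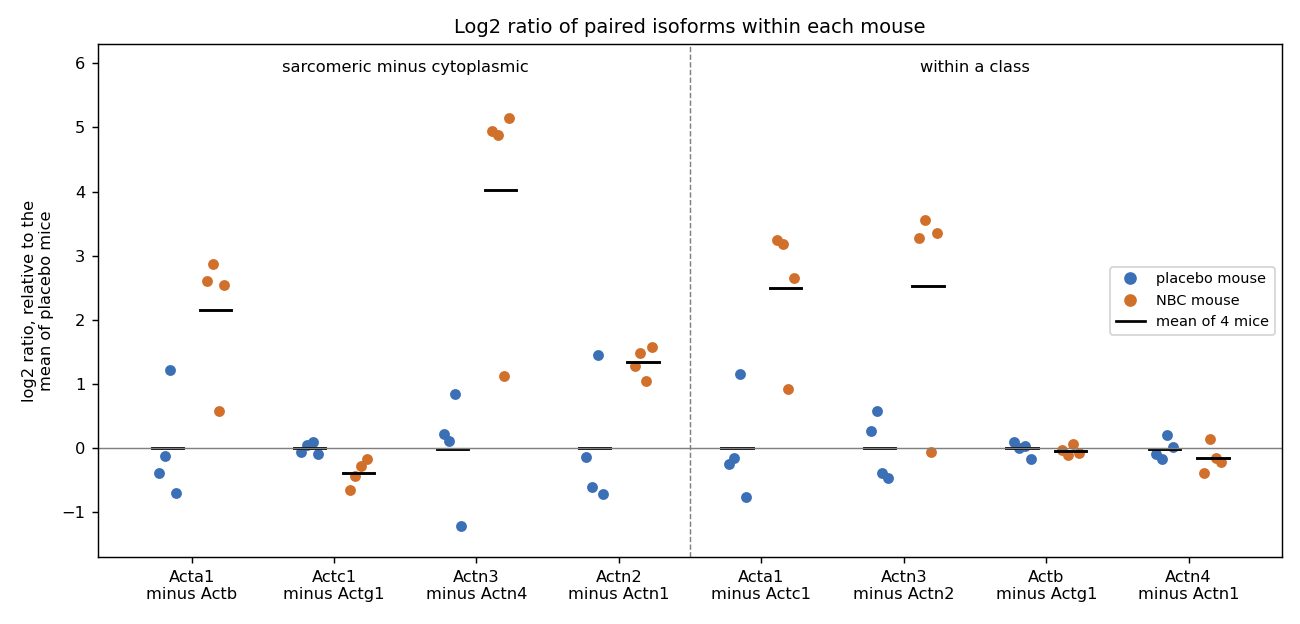
Log2 ratio of paired isoforms in each mouse, relative to the mean of the placebo mice, for 4 sarcomeric against cytoplasmic pairs and 4 pairs within a class; black lines are means of 4 mice. The ratios of Actn3 to Actn4 and of Actc1 to Actg1 separate the groups in opposite directions, the second not after quantile normalization, and those of Actb to Actg1 stay within a narrow band.

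The genes whose log2 values over the 8 arrays were most like those of each member were sought among the genes tested, as a description. For Actn3 they were the fast regulatory light chain gene Mylpf (Pearson r = 0.997), the fast troponin C gene Tnnc2 (0.995) and Ckm (0.990). For Acta1 they were Mylpf (0.978), Tnnc2 (0.975) and the titin cap gene Tcap (0.973). All of these genes were highest in NBC mice 5, 11 and 13, followed by placebo mouse 10 and then NBC mouse 9. How much of each correlation rests on the step between the 3 high NBC mice and the others was not tested. For Actb 1419734_at they were the thin filament capping gene Tmod1 (0.971), Mlf1 (0.971) and Sec61a1 (0.969). For the bright Actb probe set they were Tpt1 (0.968), the stearoyl-CoA desaturase Scd1 (0.953) and the lipoprotein lipase Lpl (0.946), none of which differed between the groups by more than 0.065 in size. For Actg1 they were Trim30d, Fam91a1 and Nelfa (0.951 to 0.970), for Actn1 1428585_at Grpel2, Ecm1 and Numb (0.953 to 0.987) and for Actn4 Tcf7l1, Trim56 and Mia3 (0.936 to 0.945). With 8 arrays and 11656 genes compared, high correlations occur for many patterns.

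The partners of these proteins were described from fixed lists, beside the 11662 named genes tested, of which 48.5% lay above 0 with a median of -0.0064. No gene of any list passed the adjusted threshold over all 8 mice. Among 11 tested thin filament partners of the sarcomere 10 lay above 0, with a median log2 difference of 1.12, and 7 were higher and 1 lower at an unadjusted p under 0.05, against 2.73% and 2.71% of all named genes tested. They included the fast troponin genes Tnni2 (4.06, SE 0.95) and Tnnc2 (3.81, SE 0.91) and the tropomodulin Tmod4 (1.53, SE 0.40), which caps thin filaments. The 1 lower gene was the muscle cofilin Cfl2, which severs filaments (-0.27, SE 0.11). It read 12705 to 14674 in placebo and 10720 to 12527 in NBC mice, with no overlap, and was chosen for mention after its values were seen. Without NBC mouse 9, 3 genes of the list (Tnni2, Tnnc2 and Mybpc2) passed the adjusted threshold, as did 5 of the skeletal muscle fibre markers. NBC mouse 9 was the lowest NBC mouse in each of these genes, so the passes are not independent evidence. Of all 11662 named genes tested, 14 passed in that fit, all higher in NBC. A further 9 genes of the thin filament list were too dim, and 1 tested gene, the fast troponin T gene Tnnt3, is also in the list of skeletal muscle fibre markers. Tmod4 (79 to 230 on placebo) and Mybpc2 (11 to 170) were kept only through their high NBC signals, which favours differences above 0 among the genes tested.

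The tested Z-disc partners of alpha-actinin were divided. Of 12 tested, 6 lay above and 6 below 0, with a median of 0.071. Another 9 genes of this list were too dim to be tested, with log2 differences from -0.41 (Fhl3) to 3.24 (Smpx). The titin cap Tcap (1.90, SE 0.45), titin itself, Ttn (1.78, SE 0.56), and the calcineurin-binding Myoz1 (1.64, SE 0.57) were higher at an unadjusted p under 0.05. Of all named genes tested, 2.73% were higher at that p. Myoz1 read 499, 650, 722 and 604 on placebo, against 2737, 462, 3558 and 3254 on NBC, and was the 1 gene of this list to pass the adjusted threshold without NBC mouse 9 (2.32; adjusted p = 0.00270). In that fit 14 of all 11662 named genes passed. NBC mouse 9 was the lowest NBC mouse in Myoz1, so its pass is not independent evidence. Myotilin, Myot, followed at 1.54 (SE 0.72), and the lowest value was that of the muscle calpain Capn3 (-0.42, SE 0.20). Both were chosen for mention after their values were seen.

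Partners of the cytoplasmic isoforms differed little. Of 27 regulators of actin monomers and filaments 18 lay above 0, between -0.15 and 0.24, with a median of 0.068, and 0 had an unadjusted p under 0.05. The Arp2/3 subunit gene Arpc2 (0.20, SE 0.12), the capping protein gene Capza1 (0.24, SE 0.16) and Arpc1a (-0.15, SE 0.10) had the smallest p. Of 22 focal adhesion and stress fibre partners of alpha-actinin 16 lay below 0 (median -0.072), and 1, the non-muscle myosin heavy chain gene Myh9 (0.35, SE 0.13), had an unadjusted p under 0.05. Of 6 genes around serum response factor 5 lay above 0 (median 0.095), with Mrtfb the only one at an unadjusted p under 0.05 (0.28, SE 0.12). Of all 11662 named genes tested, 2.73% were higher and 2.71% lower at that p.

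The smooth muscle actins, among them the Acta2 of vessel walls, were not among the members and are given for comparison. Acta2 (1416454_s_at) read 35629, 33059, 53324 and 27719 on placebo, against 42582, 39224, 41284 and 28277 on NBC, with wide overlap (log2 difference 0.041, SE 0.22). It was highest in placebo mouse 10. Actg2 (1422340_a_at) was dim, with 242 to 429 on placebo against 390 to 482 on NBC, and differed by 0.42 (SE 0.18; limma adjusted p = 0.778).

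**Figure D5:**
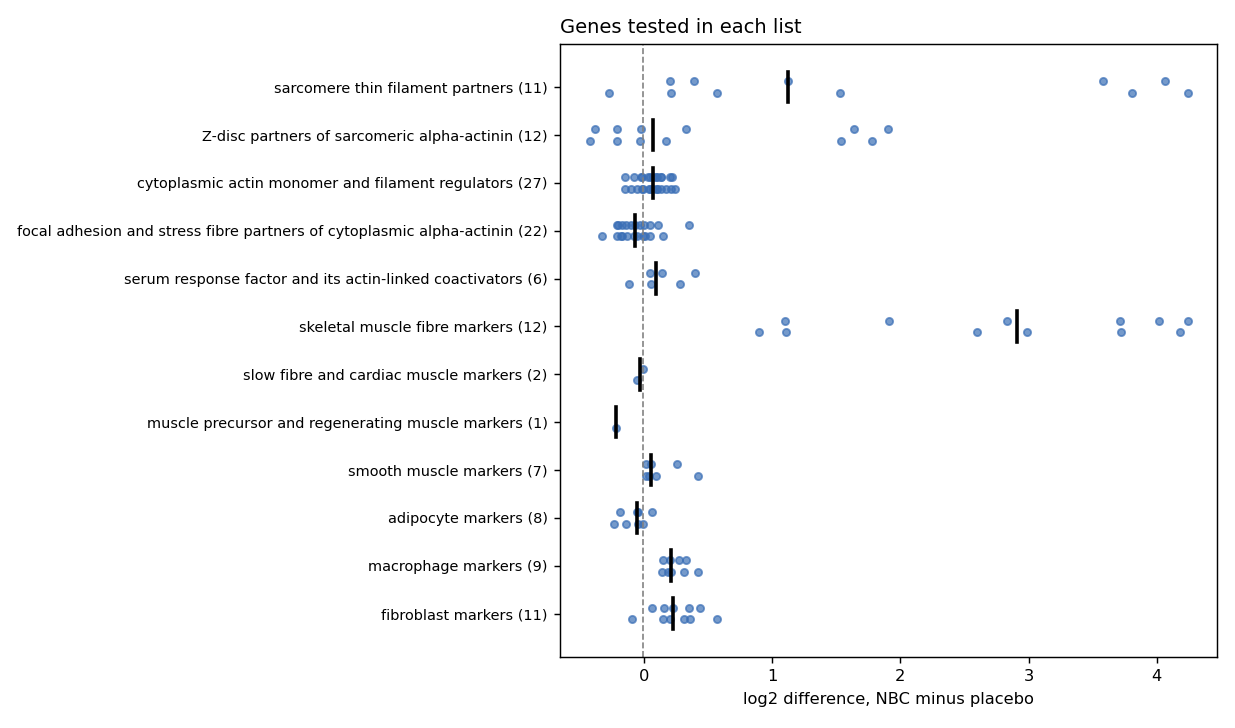
Log2 difference (NBC minus placebo) of each tested gene in the 12 lists, with the number tested in brackets, a black bar at the list's median and a dashed line at the median of all named genes. Skeletal muscle fibre markers (median 2.91) and thin filament partners (1.12) reach past 3, while the cytoplasmic lists lie between -0.33 and 0.35.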

How the data were processed

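The submitters' processing notes name MAS5, without a version, as the tool behind the deposited signal intensities, 1 linear value per probe set and array. After trimming 2% at both ends, the mean signal of each array was 1500.01, so the values were used as deposited. Groups and mouse numbers came from the sample titles, and no batch is given in the sources used here. No pair of arrays shared more than 0.0777% of its signals.

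The 45101 probe sets included 64 controls, which were left out. The platform annotation named 1 gene for 34945 probe sets. Signals were transformed as log2(signal + 26), 26 being the 10th percentile of all values, which makes changes of dim transcripts look smaller. The brighter part, with a mean log2 value no lower than the median over all probe sets (a signal of 275), was kept, 22519 in all. limma 3.58.1 (lmFit, eBayes, no covariate) in R 4.3.3 compared NBC with placebo, with Benjamini-Hochberg adjustment over these. A gene was represented by its brightest kept probe set. Isoform pairs used these representatives, or the single dim probe set for Actc1 and Actn2. SDs are of linear signals and SEs are limma's. In a simulation with 22519 probe sets, 50% of those changed 2-fold and 94% of those changed 4-fold were recovered. It gave 9 false calls, and 0 calls when none was changed. These rates describe the simulated probe sets and cannot be carried over to Actn3 and Acta1. Their log2 values had SDs of 2.02 and 0.91 among NBC mice. With log2 differences of 4.03 and 2.19, both had a limma adjusted p of 0.653. Promoter windows are RefSeq's.

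The named genes were every member, the 3 genes most like each member that was tested and up to 3 genes of each list with the smallest p, besides control probe sets. Cfl2, Tnnt3, Mybpc2, Srf, Acta2, Myot, Capn3, Fhl3 and Smpx lie outside this rule and were chosen for mention after their values were seen. Members, pairs and lists were chosen with earlier results of these data known, so their directions are not independent evidence. Alternatives covered scaling, pseudocount, filter, moderation, array weights, probe set choice and leaving out each mouse.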

Additional observations from a re-analysis of the deposited data

Results flagged for a closer look

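In 22 groups of 4 values (11 probe sets, placebo and NBC), 5 held a mouse far from the others by Dixon's gap ratio on the log2 scale, where chance gives about 1 in 20 groups. In each of them the gap ratio was above Dixon's 95% critical value. NBC mouse 9 was far below the other NBC mice in Acta1 (8181, gap ratio 0.871), Actn3 (574, gap ratio 0.955) and Actn2 (166, gap ratio 0.860). Placebo mouse 10 was far above the other placebo mice in Actn2 (232, gap ratio 0.851). Placebo mouse 6 was below the other placebo mice in Actn1 1428585_at (5558, gap ratio 0.857). The groups with NBC mouse 9 are not independent of each other, since the same array gave all 3 values.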

How the results depend on the processing

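No paired analysis was possible because no mouse number occurs in both groups. Without NBC mouse 9, 18 probe sets and 1 member gene (Actn3, log2 difference 5.04) passed the adjusted threshold, while with any other mouse left out, and under every other alternative run, the counts were 0 and 0. NBC mouse 9 was itself the NBC mouse low in Actn3, so this pass is not independent evidence. The count at an unadjusted p under 0.05 was 1400 and became 2549 without NBC mouse 9, 2126 with array weights and 2396 of 45037 with no filter. The sign turned only for Actb, Actn4 and the ratio of Actb to Actg1. Actb gave -0.0016 after quantile normalization and -0.038 to 0.11 with 1 mouse left out, against 0.037, and 0.36 as the mean of its kept probe sets, which took the member genes at an unadjusted p under 0.05 from 2 to 3. Actn4 gave 0.064 with array weights and -0.094 to 0.086 with 1 mouse left out. The ratio of Actb to Actg1 gave 0.29 as the mean of kept probe sets, 0.62 with Actb read by 1419734_at and -0.083 to 0.00044 with 1 mouse left out. Differences of Acta1 (1.88 to 2.64), Actn3 (3.66 to 5.04), Actn2 (0.95 to 2.00) and Actc1 (-0.38 to -0.24) kept their sign throughout, that of Actn2 being the most dependent on the pseudocount. Over 42 results for pairs with all mice kept, the lowest adjusted exact p was 0.0762, and quantile normalization ended the separation of the groups in Actc1 to Actg1. With 1 mouse left out, the smallest exact p is 0.0571, so no pair could pass. Scaling moved the median log2 difference of all probe sets by less than 0.1. Dim signals limit Actn2 and Actc1.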
